A study of Mus musculus with 12 samples.

Results

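RNA of the ventromedial nucleus of the hypothalamus (VMN) was examined in mice for 10 genes of brain endothelium, the cells that line the blood vessels. The genes were Flt1, Kdr, Tek, Cldn5, Cdh5, Esam, Pecam1, Slco1a4, Abcb1a and Ly6c1, taken as a list of known endothelial genes and matched by symbol to 10 of the 46517 gene identifiers in the count tables. The study used translating ribosome affinity purification (TRAP), in which a ribosomal protein fused to GFP is made in chosen cells so that ribosomes and the RNA on them can be captured. The captured cells were SF1 cells, named for the transcription factor that marks VMN neurons. Animals ate regular chow, were fasted overnight, and received an adeno-associated virus (AAV) coding for the GFP-L10 ribosomal fusion protein. In the DN group a further AAV, injected into the VMN, coded for a dominant-negative mutant of the energy-sensing kinase AMPK, and the CTRL group is labelled as lacking that mutant. The treatment text names the mutant's virus for every sample, CTRL included, and what the CTRL animals received in its place, the strain, the sex, the age and how the fusion protein was restricted to SF1 cells are not given in the labels. Each of 6 pools, of 6 animals, gave an input library from dissected tissue and an output library from captured RNA, which gave 3 libraries for each fraction of each group. Captured RNA is the labelled product of SF1 neurons, and endothelial genes are known from other cells of the same tissue.

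Brain endothelium is sealed by tight and adherens junctions, carries transporters that move chosen molecules and return others to the blood, and is kept alive and quiescent by signals through VEGF and angiopoietin receptors. These properties make up the blood-brain barrier. In the hypothalamus the vessels of the VMN have such a barrier, whereas those of the neighbouring median eminence are leaky. Where endothelial transcripts in captured RNA came from was not tested.

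The libraries held 34.6 to 55.5 M (mega) counts on genes. Genes of the mitochondrial chromosome took 74.9% to 79.7% of these in inputs and 17.9% to 26.1% in outputs, which left 8.54 to 11.3 M counts on other genes in inputs and 26.2 to 32.1 M in outputs. Raw counts of input and output are therefore not comparable, and levels are given as normalized CPM, counts per M of library size scaled by the trimmed mean of M-values (TMM) over the 12 libraries. A single read was worth 0.0348 to 0.0446 CPM in an input and 0.0137 to 0.0164 CPM in an output. Fezf1, a VMN marker, rose from 17.3 ± 3.53 CPM (SD, n = 3) in CTRL inputs to 167 ± 8.36 in CTRL outputs and from 23.4 ± 10.4 to 233 ± 32.1 in DN (edgeR over all pools, adjusted p = 2.02e-08).

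The endothelial genes were scarce in the dissected tissue. Together the 10 genes drew between 605 and 1341 counts per input library, of which Flt1 alone gave 2683 over the 6 inputs. Cldn5, the claudin that seals endothelial tight junctions, drew 25 counts over the 6 inputs and 11 over the 6 outputs. Per kilobase of exon, with all annotated exons of a gene merged, the mean input level was 1.32 ± 0.910 CPM per kb (SD, n = 6) for Slco1a4 and 1.3 ± 0.729 for Flt1, at the 53.7th and 53.2nd percentile of protein-coding genes detected in inputs. Next came Cdh5 at 0.611, Pecam1 at 0.584 and Ly6c1 at 0.577 CPM per kb. Tek stood at 0.451, Abcb1a at 0.373, Esam at 0.231 and Cldn5 at 0.117 CPM per kb, and Kdr was the lowest at 0.0510, the 12th percentile. The ranges of every pair of neighbours in this order overlapped over the 6 inputs. The order and percentiles rest on the merged length. Merged exons of Flt1, Pecam1 and Ly6c1 measured 13504, 6228 and 1677 bases, and their longest coding transcripts 6895, 3441 and 844. For Cldn5 both lengths were 1416 bases, and for Cdh5 they were 4203 and 3995. An order by transcript length was not made. In bulk tissue, fewer endothelial cells and less RNA per cell cannot be told apart.

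The genes also did not stand high in the same tissue pools. DN input 3 held the highest level of 3 of the 10 genes, CTRL input 2, CTRL input 3 and DN input 2 of 2 each, DN input 1 of 1 and CTRL input 1 of none. DN input 2 was at 0 counts for 3 genes, Kdr, Cldn5 and Esam, while it held the highest Pecam1 and Ly6c1 of all inputs. The biological coefficient of variation fitted by edgeR, the spread between libraries beyond counting error, was 0.436 to 1.48 for the endothelial genes over the 6 comparisons, beside medians of 0.555 to 0.667 over all genes tested.

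**Figure D1:**
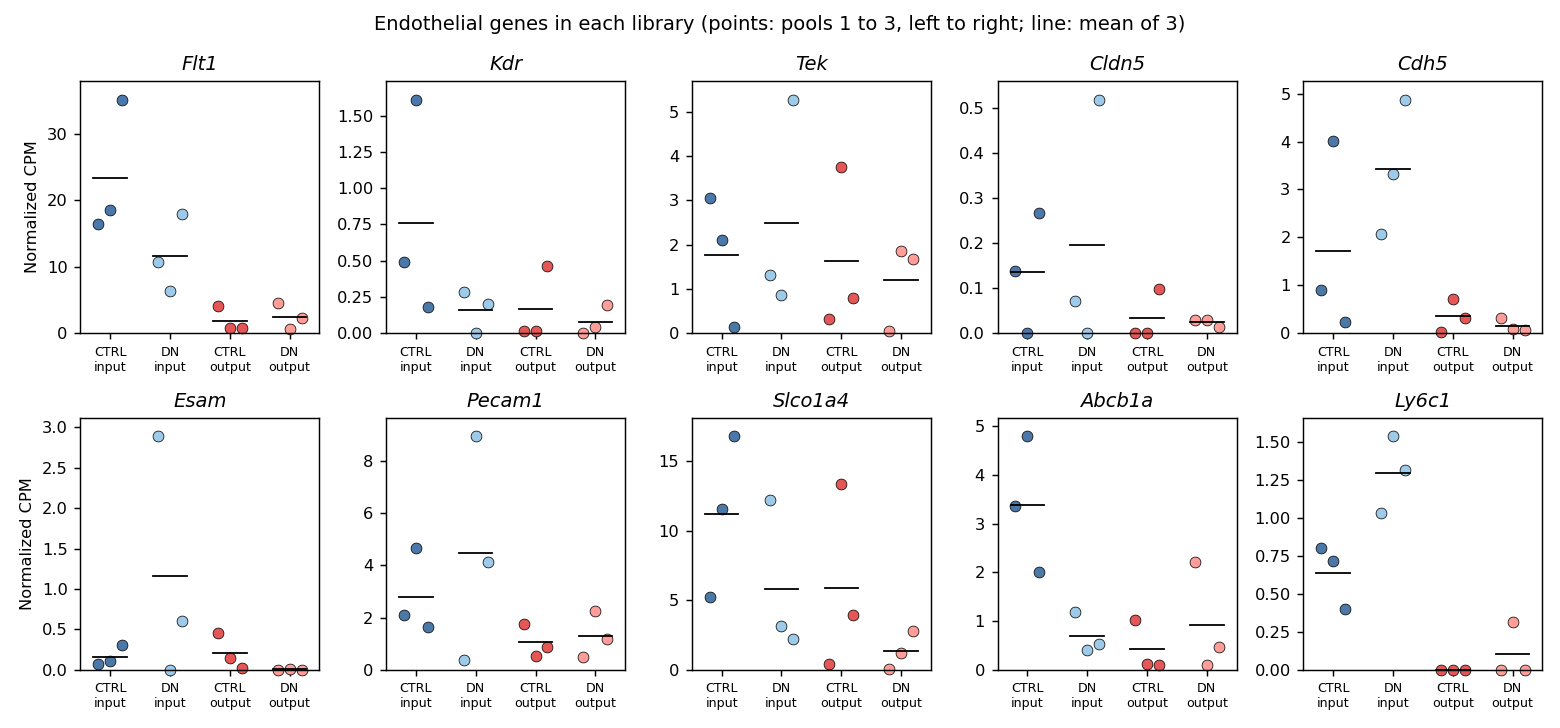
Normalized CPM (linear axes from 0, a separate scale for each gene) of the 10 endothelial genes in the 12 libraries. Points are pools 1 to 3 from left to right and lines are means of 3. Flt1 and Ly6c1 show every output below every input, and the other 8 genes overlap.

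Flt1 encodes a VEGF receptor that binds its ligand tightly and, in a soluble form, acts as a decoy. The gene (ENSMUSG00000029648, chr5:147561604-147726011, minus strand, GRCm38) measured 16.5, 18.5 and 35.1 CPM in CTRL inputs 1 to 3 and 10.7, 6.31 and 18.0 CPM in DN inputs. It measured 4.05, 0.715 and 0.738 CPM in CTRL outputs and 4.53, 0.566 and 2.31 CPM in DN outputs. All 6 outputs lay below all 6 inputs, and CTRL and DN overlapped in both fractions. The highest output of each group came from pool 1.

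Kdr (ENSMUSG00000062960, chr5:75932827-75978458, minus strand) encodes the receptor through which VEGF drives endothelial growth. It drew 14, 45 and 4 counts in the inputs of CTRL and 8, 0 and 5 in those of DN, a mean of 0.759 ± 0.754 CPM (SD, n = 3) and 0.162 ± 0.147 CPM. In outputs it drew 1, 1 and 28 counts in CTRL and 0, 3 and 14 in DN. Inputs and outputs overlapped, and CTRL output 3, at 0.459 CPM, was above 4 of the 6 inputs.

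Tek (ENSMUSG00000006386, chr4:94739289-94874976, plus strand) encodes the angiopoietin receptor also known as Tie2. Its levels were 3.06, 2.11 and 0.134 CPM in CTRL inputs, 1.32, 0.850 and 5.28 in DN inputs, 0.328, 3.76 and 0.788 in CTRL outputs and 0.0442, 1.86 and 1.68 in DN outputs. Both fractions spanned a wide range and overlapped throughout. CTRL output 2 was higher than 5 of the 6 inputs.

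Among the junction and adhesion genes, Cdh5 (ENSMUSG00000031871, chr8:104101625-104144511, plus strand) encodes VE-cadherin, the cadherin of endothelial adherens junctions. It measured 0.904, 4.01 and 0.223 CPM in CTRL inputs, 2.07, 3.32 and 4.88 in DN inputs, 0.0143, 0.715 and 0.312 in CTRL outputs and 0.309, 0.0893 and 0.0687 in DN outputs. All DN outputs lay below all DN inputs. In CTRL the fractions overlapped, since output 2 and output 3 were above input 3.

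Cldn5 (ENSMUSG00000041378, chr16:18776847-18778262, plus strand, a single exon) drew 4, 0 and 6 counts in CTRL tissue, 2, 0 and 13 in DN tissue, 0, 0 and 6 in CTRL outputs and 2, 2 and 1 in DN outputs. No library held more than 13 counts, and all groups overlapped. Esam (ENSMUSG00000001946, chr9:37528078-37538319, plus strand), an immunoglobulin-family adhesion molecule of endothelial junctions, drew 2, 3 and 7 counts in CTRL tissue and 81, 0 and 15 in DN tissue. It drew 32, 9 and 1 counts in CTRL outputs and 0, 1 and 0 in DN outputs. The DN outputs were all below the CTRL outputs in CPM, although CTRL output 3 and DN output 2 held 1 count each, and 81 of the 108 input counts came from DN input 1.

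Pecam1 (ENSMUSG00000020717, chr11:106654217-106750628, minus strand) encodes an adhesion molecule at contacts between endothelial cells that leukocytes and platelets carry too. It measured 2.09, 4.65 and 1.65 CPM in CTRL inputs, 0.357, 8.94 and 4.12 in DN inputs, 1.74, 0.544 and 0.870 in CTRL outputs and 0.471, 2.26 and 1.19 in DN outputs. DN input 1 was the lowest of the 12 libraries and DN input 2 the highest, so the fractions overlapped.

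Slco1a4 (ENSMUSG00000030237, chr6:141805440-141856199, minus strand) encodes an organic anion transporter of the barrier. It measured 5.22, 11.5 and 16.8 CPM in CTRL inputs, 12.2, 3.12 and 2.20 in DN inputs, 0.385, 13.3 and 3.92 in CTRL outputs and 0.0883, 1.22 and 2.76 in DN outputs. CTRL output 2 drew 858 counts, the highest count of any endothelial gene in any library, and was above 5 of the 6 inputs. Abcb1a (ENSMUSG00000040584, chr5:8660077-8748575, plus strand) encodes P-glycoprotein, the pump that returns many drugs to the blood. It measured 3.37, 4.80 and 2.01 CPM in CTRL inputs, 1.18, 0.405 and 0.520 in DN inputs, 1.03, 0.124 and 0.0984 in CTRL outputs and 2.21, 0.0893 and 0.467 in DN outputs. All CTRL inputs exceeded all DN inputs and all CTRL outputs, while DN output 1 was above every DN input.

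Ly6c1 (ENSMUSG00000079018, chr15:75044018-75048830, minus strand) encodes a lipid-anchored surface protein of brain capillaries and of some leukocytes. It drew 23, 20 and 9 counts in CTRL tissue, or 0.80, 0.716 and 0.401 CPM, and 29, 38 and 33 in DN tissue, or 1.03, 1.54 and 1.32 CPM. The 3 CTRL outputs and DN outputs 1 and 3 were at 0 counts, and DN output 2 drew 21 counts, or 0.313 CPM. A total of 3 counts over the CTRL outputs would correspond to 0.0154 CPM, the limit that 0 counts allow there, for counting error only. All 6 outputs lay below all 6 inputs, and all DN inputs lay above all CTRL inputs.

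Ly6c1 has a near-identical neighbour, Ly6c2, known from monocytes, and the coding sequences show how little separates the reads of the pair. Both are 393 bases long, differ at 9 bases (97.7% identity) and share a run of 188 bases without a difference. The first 90 coding bases, 5′ to 3′, from transcripts of GENCODE mouse release 21 on GRCm38 are shown because they hold 6 of the 9 differences, which are in capitals. The coding part of Ly6c1 spans chr15:75045405-75048511 and that of Ly6c2 chr15:75108546-75111667, both on the minus strand.
Ly6c1: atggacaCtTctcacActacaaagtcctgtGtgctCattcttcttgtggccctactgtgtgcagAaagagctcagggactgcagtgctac
Ly6c2: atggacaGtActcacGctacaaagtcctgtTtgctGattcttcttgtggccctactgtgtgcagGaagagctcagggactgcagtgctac
Of the 50-base windows of the longest coding transcript of Ly6c1, 36.7% also occurred in a transcript of Ly6c2 or Ly6a. Ly6c2 averaged 0.921 ± 1.60 CPM (SD, n = 3) in CTRL inputs, 0.20 ± 0.312 in DN inputs, 0.0759 ± 0.119 in CTRL outputs and 0.393 ± 0.566 in DN outputs, and did not pass the test over all pools (edgeR adjusted p = 0.710). Reads that aligned to more than 1 place were a counting class of their own (10.8% to 13.5% of reads) and were left out. Reads that lay wholly in shared stretches could thus be missing from the Ly6c1 counts, to an extent that was not tested.

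Shared sequence was smaller for the other endothelial genes. Abcb1a shared 18.6% of its windows with Abcb1b, Abcb4 or Gm42686, a transcript model on the opposite strand that overlaps 553 of its exon bases (10.1%). The strand setting of the counting is not given in the sources used here. Whether reads over that stretch were counted for Abcb1a or left out as ambiguous is therefore not known. Abcb1b drew 935 counts over the 12 libraries, up to 438 in a CTRL input, beside 608 for Abcb1a. Slco1a4 shared 2.73% of its windows with Slco1a5, Slco1a1, Slco1a6 and a pair of predicted genes. Slco1a1 and Slco1a6 drew 0 counts in all 12 libraries, whereas Slco1a5 drew 236, of which 196 came from a single DN output. The other 7 endothelial genes shared none.

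The low level of Cldn5 stood beside a high GC content. Its transcript is 60.5% G or C, the 96.0th percentile of detected protein-coding genes, and Slco1a4 with 40.3% is at the 6.24th percentile. Over all detected protein-coding genes the median input level went from 2.36 CPM per kb in the quintile with the lowest GC content, through 1.89, 1.27 and 0.741, to 0.435 CPM per kb in the quintile with the highest. Within its own GC quintile, Cldn5 lay below the median (0.117 against 0.435 CPM per kb), as did Kdr (0.0510 against 1.27), Tek (0.451 against 1.89), Abcb1a (0.373 against 1.89) and Slco1a4 (1.32 against 2.36). Flt1 lay at it on the merged exon length, with 1.3 against 1.27 CPM per kb. All RNA had been amplified before sequencing, per the labels, and the part of GC content in these levels was not tested.

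**Figure D2:**
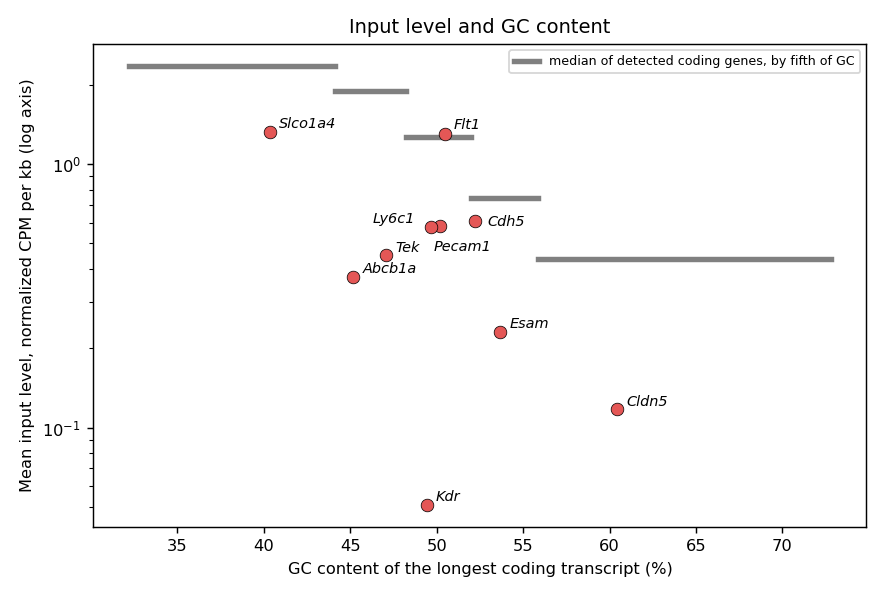
Mean level over the 6 inputs (normalized CPM per kb of merged exons, log axis) against GC content of the longest coding transcript (%). Points are the 10 endothelial genes and grey bars the median of detected protein-coding genes in each quintile of GC content, falling from 2.36 to 0.435. Flt1 sits at its bar, and the other 9 genes sit below theirs.

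Endothelial genes were lower in captured RNA than in tissue in most gene and pool pairs. When each output was divided by the input of its own pool (log2 scale, 1 added to the normalized CPM), 45 of the 60 pairs were below 0 (75.0%), against 49.9% over all genes tested. The median ratio was -0.81 for the endothelial genes, on a scale that understates low genes, and 0.0 over all genes tested. With 0.1 CPM added in place of 1, 45 pairs were lower and the median was -1.94. In CTRL pools 1 to 3, 9, 6 and 7 of the 10 genes were lower, and in DN pools 1 to 3, 8, 6 and 9.

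Flt1 and Ly6c1 were lower in 6 of 6 pools. The Flt1 ratios were -1.79, -3.50 and -4.38 in CTRL and -1.08, -2.22 and -2.52 in DN, and those of Ly6c1 lay between -1.21 and -0.49. Cdh5, Pecam1 and Abcb1a were lower in 5 of 6 pools, and Slco1a4, Kdr and Cldn5 in 4 of 6. Tek and Esam were lower in 3 pools and higher in 3. The pools that ran against the others were in part shared between genes. Cldn5, Kdr, Tek and Esam were higher in DN pool 2, Cdh5, Kdr and Tek in CTRL pool 3, and Tek, Slco1a4 and Esam in CTRL pool 2. In DN pool 2, however, Cldn5, Kdr and Esam had 0 input counts and 2, 3 and 1 output counts. With 0 input counts a ratio could not fall below 0. In CTRL pool 3 the inputs of Cdh5, Kdr and Tek drew only 5, 4 and 3 counts. In CTRL pool 2 the input drew 3 counts for Esam, but 59 for Tek and 322 for Slco1a4, so few input counts do not mark all of these pairs. Cdh5 was higher in CTRL pool 3 (0.10), Pecam1 in DN pool 1 (0.12), Abcb1a in DN pool 1 (0.56) and Slco1a4 in CTRL pool 2 (0.20) and DN pool 3 (0.23).

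**Figure D3:**
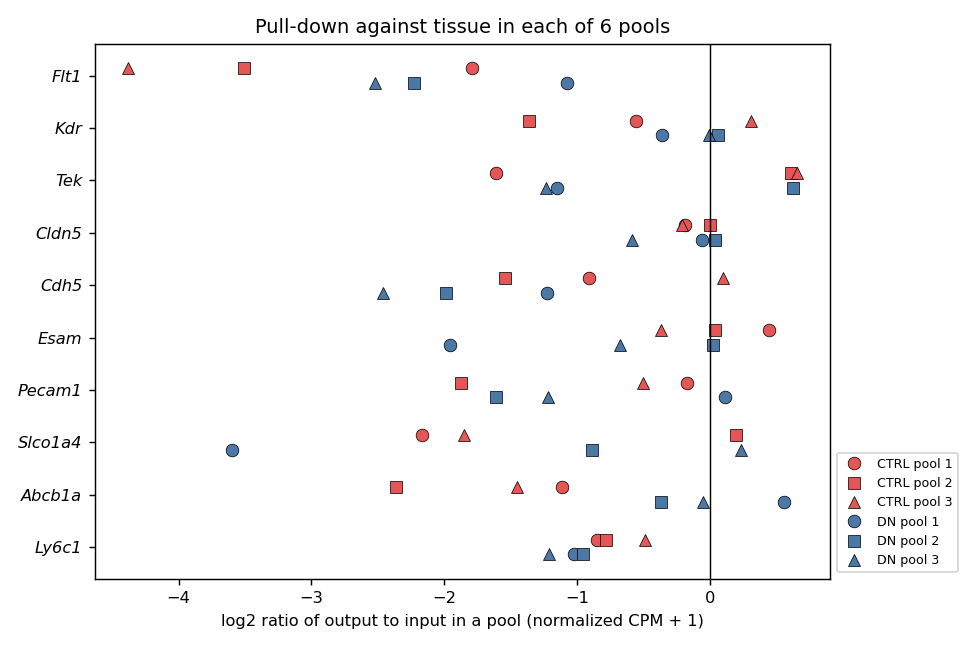
Log2 ratio of output to input (normalized CPM + 1) in each of the 6 pools for each endothelial gene, CTRL pools in red and DN pools in blue. Points left of 0 are lower in captured RNA. Flt1 reaches -4.38 and is left of 0 in all 6 pools, as is Ly6c1, whereas Tek and Esam have 3 pools on each side.

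The summed level of the 10 genes had a median of 35.1 CPM in inputs (24.5 to 57.1) and 7.85 CPM in outputs (6.49 to 19.4), with no overlap. The highest output, CTRL output 2, owed 13.3 of its 19.4 CPM to Slco1a4. As CPM of the counts outside the mitochondrial chromosome, without TMM, the sums were 60.7 to 149.9 in inputs and 14.2 to 45.1 in outputs, again apart. As CPM of the counts on all genes, they were 13.6 to 34.4 in inputs and 10.7 to 33.9 in outputs, and overlapped. The outputs were thus apart from the inputs relative to nuclear genes and not relative to all gene counts.

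In CTRL, Flt1 fell in captured RNA by 3.68 ± 0.74 on the log2 scale (SE; 95% interval -5.30 to -2.06), a 12.8-fold lower level (edgeR quasi-likelihood test, two-sided, Benjamini-Hochberg adjusted p = 0.0224). It was 1 of 7 endothelial genes that had enough counts to be tested, beside 3.2% of all genes tested that passed in either direction and 1.42% that were lower. Leaving out pool 2 or pool 3 ended the call (log2 fold change -3.42 and -2.87, adjusted p = 0.199 and 0.120), and over the 9 alternatives the adjusted p ranged from 4.03e-07 to 0.199. Abcb1a had a log2 fold change of -3.02 ± 1.18 (adjusted p = 0.221), Cdh5 of -2.29 ± 1.51 (0.50) and Kdr of -2.21 ± 1.63 (0.557). Pecam1 had -1.41 ± 0.96 (adjusted p = 0.516), Slco1a4 -0.94 ± 0.93 (0.685) and Tek -0.13 ± 1.26 (0.979). Cldn5, Ly6c1 and Esam were under the filter on low counts. A gene that passes this filter through its input counts alone had to differ, so the number tested is no measure of the whole list. Abcb1a, with 72, 8 and 6 counts in CTRL outputs, passed it through its inputs, and its values in CTRL add no support for the list. Ly6c1 was at least 42.8-fold lower in CTRL outputs than in CTRL inputs, taking 3 counts over the group as the floor, with 52 counts in the inputs. Flt1, Ly6c1 and Abcb1a had all CTRL outputs below all CTRL inputs, beside 11.2% of all genes tested, among which Ly6c1 was not.

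In DN, none of the 7 endothelial genes tested passed (edgeR), beside 3.38% of all genes tested in either direction and 1.54% lower. Cdh5 had the largest difference, a log2 fold change of -4.45 ± 1.32 (95% interval -7.33 to -1.57, adjusted p = 0.0982). Flt1 had -2.25 ± 0.86 (adjusted p = 0.214), Ly6c1 -3.62 ± 1.89 (0.392), Slco1a4 -2.10 ± 1.23 (0.457), Pecam1 -1.78 ± 1.22 (0.545) and Tek -1.06 ± 1.38 (0.780). Abcb1a had 0.38 ± 1.43 (adjusted p = 0.943), and was negative without pool 1 (-0.73). Both Cdh5 and Flt1 had an unadjusted p below 0.05 (0.00552 and 0.0227), and DESeq2 called both (adjusted p = 0.00552 and 0.0478). Flt1, Ly6c1 and Cdh5 had all DN outputs below all DN inputs, beside 10.9% of all genes tested. In DN outputs Cdh5 drew only 21, 6 and 5 counts, and Ly6c1 drew 0, 21 and 0. Both passed the filter of this fit through their inputs, so their values in DN add no support for the list.

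Over all 6 pools, in a fit of the 12 libraries, 2 of the 9 endothelial genes tested fell, beside 10.1% of all genes tested that passed in either direction and 4.8% that were lower. Flt1 fell by 2.95 ± 0.58 on the log2 scale (95% interval -4.18 to -1.72, 7.74-fold lower, adjusted p = 0.00344), and passed in 11 of 11 alternatives with an adjusted p of 5.63e-08 to 0.0305. Ly6c1 fell by 5.76 ± 1.55 (95% interval -9.08 to -2.43, adjusted p = 0.0296), a fitted value that depends on how libraries at 0 are treated. With 0 counts in 5 of 6 outputs, Ly6c1 passed the filter through its inputs, so a gene like it could be tested only if it differed, and its call adds no support for the list. The Ly6c1 call was lost without CTRL pool 1, 2 or 3 (adjusted p = 0.118, 0.115 and 0.0924) and without DN pool 1 or 3 (0.0746 and 0.0766). It passed in 6 of 11 alternatives, where its adjusted p ranged from 0.00479 to 0.118. Both genes had all 6 outputs below all 6 inputs, as had 2.94% of all genes tested.

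Cdh5 was at the threshold over all pools, with a log2 fold change of -3.36 ± 1.05 (95% interval -5.58 to -1.15, edgeR adjusted p = 0.0513). It passed with DESeq2 (adjusted p = 0.00318), with DESeq2 size factors in edgeR (0.0499) and without the filter on low counts (0.0491), and its adjusted p over the 11 alternatives went up to 0.164. Esam had -3.47 ± 1.45 (adjusted p = 0.150), Pecam1 -1.59 ± 0.78 (0.230), Slco1a4 -1.51 ± 0.80 (0.264), Abcb1a -1.31 ± 0.95 (0.437), Kdr -1.61 ± 1.41 (0.537) and Tek -0.59 ± 0.99 (0.780). Of these 6 genes, Esam had an interval that left out 0 (-6.53 to -0.41), and the other intervals included it. Cldn5 had too few counts to be tested.

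The DN virus was compared with CTRL in dissected tissue, which holds the vessels. Cldn5, Kdr and Esam had too few counts to be tested in inputs. None of the other 7 passed (edgeR; DESeq2 also called none), beside 0.00756% of all genes tested, which is 1 of 13221, with 589 at an unadjusted p below 0.05 and 2 called by DESeq2. Abcb1a had the largest difference, from 3.39 ± 1.39 CPM (SD, n = 3) in CTRL inputs to 0.701 ± 0.417 in DN inputs. Its log2 fold change was -2.27 ± 1.01 (SE; 95% interval -4.47 to -0.07, unadjusted p = 0.0444, edgeR adjusted p = 0.997). Its adjusted p was 0.685 or more in 12 alternatives.

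Ly6c1 lay the other way, with 0.639 ± 0.210 CPM in CTRL inputs and 1.3 ± 0.252 in DN inputs and a log2 fold change of 1.01 ± 1.10 (95% interval -1.39 to 3.42). Flt1 measured 23.4 ± 10.2 and 11.7 ± 5.90 CPM and had a log2 fold change of -1.0 ± 0.48 (95% interval -2.05 to 0.05). Cdh5 had 1.0 ± 1.07, Slco1a4 -0.94 ± 0.72, Pecam1 0.68 ± 1.01 and Tek 0.49 ± 1.19, each with an edgeR adjusted p of 0.997. Abcb1a and Ly6c1 were the endothelial genes whose CTRL and DN inputs did not overlap, 1 in each direction, beside 10.5% of all genes tested. Tek was negative without CTRL pool 3 (-0.06) or DN pool 3 (-0.71), and Pecam1 without DN pool 2 (-0.32). The summed level of 16 mural cell genes was 61.4 to 94.2 CPM in CTRL inputs and 69.7 to 87.9 in DN inputs, and that of 13 blood cell genes 4.31 to 47.4 and 7.28 to 23.9 CPM. Both overlapped between the groups, and their part in the levels of the endothelial genes was not tested.

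In captured RNA, none of the 6 endothelial genes tested passed between DN and CTRL (edgeR; DESeq2 also called none), beside 0.0% of all genes tested, with 721 of 13333 at an unadjusted p below 0.05 and 58 called by DESeq2. Slco1a4 had the largest difference, from 5.88 ± 6.70 CPM (SD, n = 3) in CTRL outputs to 1.36 ± 1.34 in DN outputs. Its log2 fold change was -2.11 ± 1.33 (95% interval -5.02 to 0.79, edgeR adjusted p = 0.949). The other 5 had log2 fold changes of 1.14 ± 1.59 (Abcb1a), -1.15 ± 1.63 (Cdh5), -0.45 ± 1.44 (Tek), 0.43 ± 1.15 (Flt1) and 0.31 ± 1.20 (Pecam1), with edgeR adjusted p from 0.982 to 0.994. Leaving out 1 library reversed 4 of these. Without DN output 1, Abcb1a was -0.57, Flt1 -0.35 and Tek 0.12, without DN output 2 Pecam1 was -0.33, and without CTRL output 2 Tek was 1.10. Esam, with 42 counts in CTRL outputs and 1 in DN outputs, was under the filter, and was the endothelial gene whose output groups did not overlap, beside 5.87% of all genes tested that were lower in this way. The share in either direction was not counted here, and Esam was not itself among the genes tested.

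**Figure D4:**
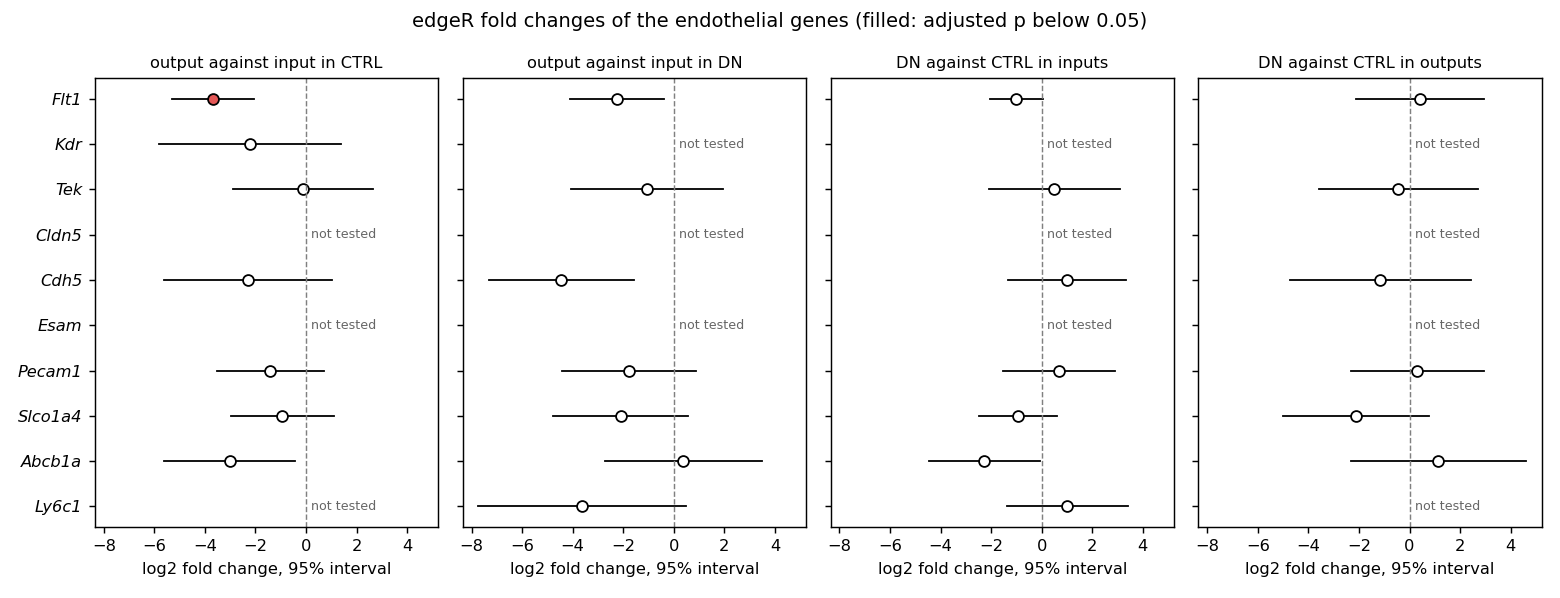
Log2 fold change with its 95% interval (edgeR) for each endothelial gene in 4 comparisons, left to right output against input in CTRL and in DN, and DN against CTRL in inputs and in outputs. Filled points passed an adjusted p of 0.05. Flt1 in CTRL, at -3.68, is the filled point, and genes under the filter on low counts are marked as not tested.

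The change of the output-input difference with DN was tested as an interaction over all 12 libraries. None of the 9 endothelial genes tested passed (edgeR; DESeq2 also called none), beside 0.0% of all genes tested, with 933 of 15011 at an unadjusted p below 0.05 and 91 called by DESeq2. The largest term was that of Esam, at -7.60 ± 2.94 (95% interval -13.8 to -1.38, unadjusted p = 0.0196, edgeR adjusted p = 0.738), which rests on 81 counts in DN input 1 and 1 count in the DN outputs. Ly6c1 had 4.30 ± 2.33 (adjusted p = 0.836), and -0.87 without DN pool 2, the pool with the 21 output counts. Abcb1a had 3.41 ± 1.92 (adjusted p = 0.847) and Flt1 1.43 ± 1.09 (95% interval -0.88 to 3.74, adjusted p = 0.909). The Flt1 call in CTRL and its absence in DN are thus not shown to differ. The other 5 had adjusted p from 0.944 to 0.995.

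Other genes of the vessel wall were tested in the same fit over all pools. Of 25 further endothelial identity genes tested, 4 fell and none rose, with a median log2 fold change of -1.67 beside -0.01 over all 15011 genes tested. The share of all genes tested that were lower in this fit was 4.8%, and 10.1% passed in either direction, which is the background for this list and those that follow. Between outputs alone, 18 genes of this list had enough counts to be tested. The others entered the fit over all pools with the help of their inputs, which lowers the median. The same limit holds for the medians and counts of the lists that follow. Ptprb, the phosphatase that restrains Tek signalling, fell by 1.71 ± 0.39 (SE; edgeR adjusted p = 0.0107) from 21.6 ± 2.47 CPM (SD, n = 3) in CTRL inputs to 5.03 ± 0.0550 in CTRL outputs, and from 14.8 ± 3.67 to 5.93 ± 4.09 in DN. It was lower in 6 of 6 pools. Ly6a, a surface protein related to Ly6c1, fell by 4.87 ± 1.14, the chemokine gene Cxcl12 by 3.02 ± 0.71 and the transcription factor gene Fli1 by 4.12 ± 1.20 (adjusted p = 0.0114, 0.0123 and 0.0377). Fli1 averaged 0.525 CPM in CTRL outputs and 0.0447 in DN outputs, too low to be tested between outputs. It passed the filter through its inputs, so its call adds no support for the list.

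In the VEGF and angiopoietin pathway around Flt1, Kdr and Tek, 2 of 13 genes tested fell and none rose, with a median of -0.69. Flt4, the receptor for VEGF-C, fell by 6.10 ± 1.41 (adjusted p = 0.0107). Its outputs averaged 0.0109 CPM in CTRL and 0.0187 in DN, so it passed the filter through its inputs and had to differ. The co-receptor gene Nrp1, which neurons express too, fell by 0.88 ± 0.27 (adjusted p = 0.0437). The ligand genes Pgf and Vegfd did not pass (-3.37 ± 1.64 and -2.52 ± 1.5, adjusted p = 0.223 and 0.329). Among junction genes, 4 of 12 fell and 1 rose, with a median of -0.65. Ctnna1, which links cadherins to actin, fell by 1.49 ± 0.32 (adjusted p = 0.00593). F11r, a junctional adhesion molecule, fell by 3.44 ± 0.99 (adjusted p = 0.0357), and Jam2, named after its values were seen, fell too. F11r averaged 0.385 CPM in CTRL outputs and 0.0767 in DN outputs, too low to be tested between outputs. It too passed the filter through its inputs. Cldn12, a claudin gene, rose by 1.05 ± 0.28 (adjusted p = 0.0262) from 24.9 ± 0.349 to 48.1 ± 26.2 CPM in CTRL and from 18.6 ± 10.02 to 41.3 ± 4.41 in DN.

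Among barrier transporters and receptors, 1 of 20 fell and none rose, with a median of -0.76, a share near the 4.8% of all genes tested. Slc16a1, a monocarboxylate transporter, fell by 1.67 ± 0.45 (adjusted p = 0.0256). Slc38a3, Slc40a1 and Slco1c1 did not pass (-2.72 ± 0.87, -3.53 ± 1.28 and -2.88 ± 1.05, adjusted p = 0.0566, 0.0959 and 0.0981). The genes of the 4 lists are shared with other cell types to a different degree. Summed levels of inputs and outputs overlapped for the transporter list (321 to 374 and 263 to 355 CPM) and for the junction list (273 to 377 and 227 to 302 CPM). They also overlapped for the VEGF and angiopoietin list (109 to 165 and 85.8 to 114 CPM). Those of the further endothelial identity genes were apart (92.5 to 203 and 31.9 to 91.5 CPM).

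Some genes of the cells around the vessel also fell. Of 9 mural cell genes tested 2 fell, Rgs5 by 1.78 ± 0.36 and Vtn by 3.37 ± 0.98 (adjusted p = 0.00391 and 0.0373), and of 8 genes of perivascular fibroblasts Pdgfra fell by 2.52 ± 0.38 (adjusted p = 0.000366). Pdgfra also marks oligodendrocyte precursors. Of 7 blood cell genes 3 fell, among them Hbb-bs by 5.59 ± 1.33 (adjusted p = 0.0131). Hbb-bs averaged 0.00994 CPM in CTRL outputs and 0.0195 in DN outputs and likewise passed the filter through its inputs. The same holds for Cd3e (0.0518 and 0.0 CPM) and Hba-a1 (0.0297 and 0.0246 CPM), which also fell. Among glia, all 16 astrocyte genes and 14 of 15 oligodendrocyte genes fell, with medians of -2.11 and -2.07, and 9 of 13 microglial genes fell, with a median of -3.06, beside -1.61 for the 9 endothelial genes tested. Between outputs alone, 10 microglial and 6 endothelial genes had enough counts to be tested. The medians of these 2 lists thus include genes that entered the fit with the help of their inputs. Summed astrocyte levels were 3678 to 4442 CPM in inputs and 1397 to 2147 in outputs, and no test of the difference between lists was made.

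**Figure D5:**
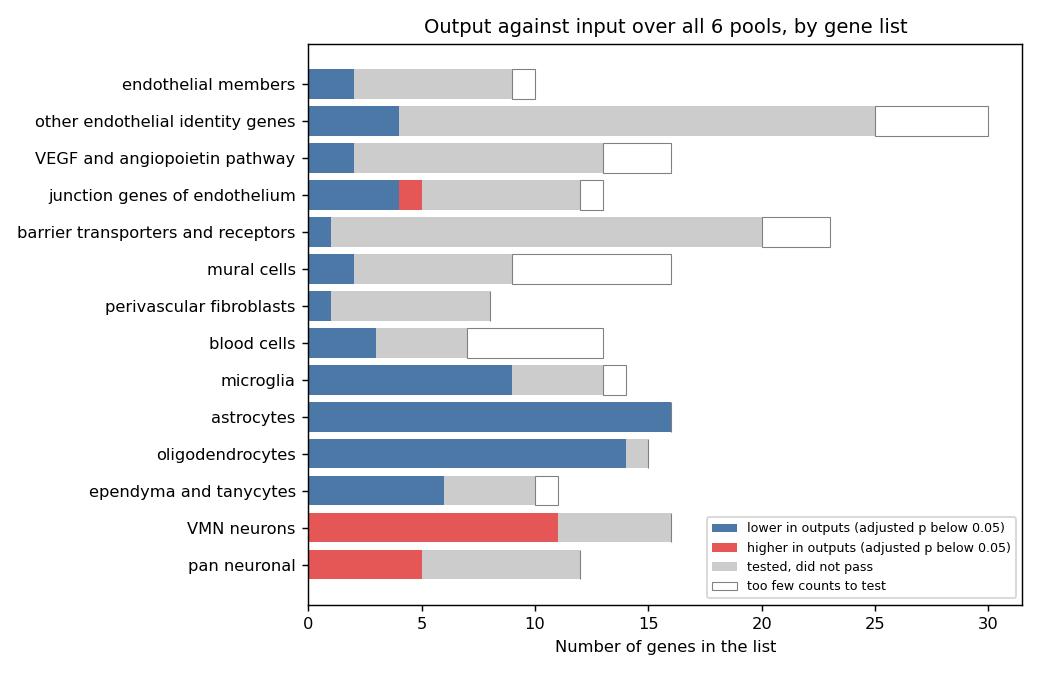
Number of genes in each list (horizontal axis) that were lower (blue) or higher (red) in outputs than in inputs over all 6 pools at an edgeR adjusted p below 0.05, tested without passing (grey) or too low to test (white). The endothelial genes have 2 of 9 tested lower, beside 4 of 25 further endothelial identity genes and 16 of 16 astrocyte genes, and the VMN neuron list has 11 of 16 higher.

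The genes whose level followed the endothelial genes most closely were found by Pearson's r over the 12 libraries between log2(normalized CPM + 1) and the mean standardized level of the 10 genes, among 7712 protein-coding genes with a mean of at least 5 CPM. Among the closest were Agt (0.949), Camk2n1 (0.944), Slc4a4 (0.943), Slc6a11 (0.933), Sparc (0.932), Ptch1 (0.931) and Cald1 (0.931). All of those named had a higher mean in inputs than in outputs, such as 11.6 against 1.06 CPM for Agt, so these values share the split between fractions. After the mean of each of the 4 groups was subtracted, another 8 genes led, with Rnf128 (0.925), Ccnt1 (0.916), Gas7 (0.903) and Tmem231 (0.899) first, then Nexmif (0.895), Peg10 (0.893), Tcp11l1 (0.892) and Sik2 (0.885). None of the 8 was on the cell type lists, and no gene named for one measure was named for the other. These are the highest of 7712 values on 12 libraries, given as a description.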

How the data were processed

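RNA counts per Ensembl gene, 1 table per library, were deposited by the authors without normalization. The submitters' processing notes name build GRCm38, the aligner STAR 2.4.2a, the counter HTSeq 0.6.1 and the trimmer cutadapt 1.3. An Ovation kit (NuGEN) amplified the RNA of all libraries, per the labels. Annotation release, strandedness and settings were not given in the sources used here. The 5 HTSeq classes of reads without a gene (16.1% to 26.1% of reads) were left out. Symbols, exon lengths and transcripts came from GENCODE mouse release 21, which matched 46005 of 46517 identifiers (98.9%). No library copied another. Molecular identifiers are not mentioned, so limits cover counting error only.

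Each comparison was tested with edgeR 4.0.16 in R 4.3.3 (quasi-likelihood, two-sided, TMM, filterByExpr with a minimum count of 10 and total of 15, Benjamini-Hochberg over all genes tested, threshold 0.05), in a fit of the 6 libraries concerned, or of all 12 for all pools and the interaction. The scripts were tested on simulated data. Alternatives were DESeq2 1.42.0, its size factors in edgeR, leaving out the mitochondrial chromosome, no filter, 1 fit of 12 libraries, a replicate block and each replicate left out. A pseudocount of 0.1 CPM was added after seeing the data.

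The endothelial genes and all gene lists were chosen with earlier results of these data known. Named besides the 10 genes were up to 4 genes per list with the smallest p in the output-input comparison over all pools, near-identical relatives, Fezf1 as a check of the capture, and up to 8 genes most like the endothelial genes by each of 2 correlations. Some genes that this rule takes are not reported here. Input and output of a number come from 1 pool, per the series' design. Their deviations from group means correlated at r = 0.0656, 0.0294 and 0.141 in CTRL and 0.0117, 0.0082 and 0.0252 in DN. DN and CTRL pools share only a number (r = -0.019 to 0.0136).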

Additional observations from a re-analysis of the deposited data

How the results depend on the processing

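Of the 10 endothelial genes, 9 drew no more than 376 counts in any input, and at this depth 1 to 4 per comparison could not be tested. With DESeq2, 2 endothelial genes were called in DN (output against input), and genes called numbered 1172 in CTRL, 1124 in DN, 2368 over all pools, 2 between DN and CTRL inputs, 58 between outputs and 91 in the interaction, beside 431, 441, 1513, 1, 0 and 0. Without the filter on low counts they were 903 in CTRL, 976 in DN, 39 between inputs and 54 in the interaction. In 1 fit of all 12 libraries they were 673 in DN and 0 between inputs, which were also 0 with DESeq2 size factors and without the mitochondrial chromosome.

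With the replicate block, which is the pool for output against input and joins unrelated animals between DN and CTRL, genes called numbered 527 in CTRL, 396 in DN, 1379 over all pools and 0 between inputs, and no call of an endothelial gene changed. Under the block, Tek in CTRL was 0.19 (otherwise -0.13), Abcb1a in DN -0.41 (otherwise 0.38) and the Pecam1 interaction 0.20 (otherwise -0.36).

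Leaving out 1 replicate gave 0 to 1 endothelial genes called in CTRL and 1 to 2 over all pools, and 45 to 214 genes called in CTRL, 115 to 148 in DN, 831 to 1226 over all pools and 0 to 8 between inputs. Log2 fold changes that changed sign then ranged from -1.52 to 1.02 for Tek in CTRL and -0.73 to 0.65 for Abcb1a in DN. Between inputs they ranged from -0.32 to 1.25 for Pecam1 and -0.71 to 1.14 for Tek. Between outputs they ranged from -0.35 to 1.76 for Flt1, -0.33 to 0.89 for Pecam1, -0.93 to 1.10 for Tek and -0.57 to 3.02 for Abcb1a. In the interaction they ranged from -1.25 to 0.39 for Pecam1, -0.52 to 4.90 for Kdr, -2.07 to 0.46 for Tek, -2.62 to 0.51 for Slco1a4 and -0.87 to 4.87 for Ly6c1. The causes were not tested.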
